A study of Drosophila melanogaster with 384 samples.

Results

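The cells described here are brat tumor cells of the larval fly brain that were selected on their level of Ldh, the lactate dehydrogenase gene, and set against tumor cells of the same plates with the least Ldh. Within each of the 2 tumor plates the kept cells were ordered by Ldh reads per 1000000 reads of the cell (CPM), and the 31 highest were compared with the 31 lowest of 93 cells on plate 3, and the 30 highest with the 30 lowest of 92 on plate 4. The Ldh-high cells thus number 61 and the Ldh-low cells 61, of 384 cells in the series. The 63 cells between them form the middle group. Because the cells were chosen by Ldh, its own level is a description and is left out of every comparison.

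The study profiled single green cells sorted from dissociated central brains of Drosophila melanogaster larvae, amplified with a full-length single-cell protocol from polyA RNA. The tumor cells carry UAS-Dcr2/+, inscGal4 with UAS-CD8::GFP/+ and sh-brat/+, so a hairpin against brat is driven by inscGal4, a driver active in neuroblasts, and their progeny can still hold the GFP. The control cells differ in carrying sh-mCherry/+, and share Dcr2, the driver and the GFP. All were wandering larvae of the third instar, 6 to 7 days old, reared at 29 °C. The tumor cells (plates 3 and 4) come from a single pool of 3 brains and the control cells (plates 1 and 2) from a single pool of 5, so each pool is 1 sample. No test between these groups is possible, the difference between the 2 plates is the spread that can be shown, and intervals printed here are exact Poisson or Clopper-Pearson intervals at 95% that cover counting error only.

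Neuroblasts divide as stem cells to build the brain. Most, the type I neuroblasts, bud off ganglion mother cells, whereas the few type II neuroblasts make intermediate progenitors that divide further, and the brat protein keeps those progenitors from turning back into neuroblasts. Lactate dehydrogenase turns the pyruvate made by glycolysis into lactate and restores the NAD+ that glycolysis uses, so cells with much Ldh are often cells that run glycolysis strongly. Pyruvate that enters the mitochondria instead feeds the TCA cycle and the respiratory chain.

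Ldh (FBgn0001258, chromosome 3L, 6259105 to 6262694 on the minus strand in BDGP6) overlaps no exon of another gene. On plate 3 Ldh ran between 937 and 6746 CPM in the Ldh-high cells, with a median of 1459, and between 0 and 196.6 CPM in the Ldh-low cells, with a median of 6.85. On plate 4 it ran between 508 and 3763 CPM in the Ldh-high cells, with a median of 1216, and between 0 and 59.5 CPM in the Ldh-low cells, with a median of 1.11. The cells lie on a continuum, and no gap marks the edges. The lowest Ldh-high cell of plate 3 was at 937 CPM and the highest middle cell at 891, and the lowest middle cell was at 211.3 CPM and the highest Ldh-low cell at 196.6. On plate 4 the matching pairs were 508 and 483 CPM, and 70.1 and 59.5 CPM. Among the Ldh-low cells 15 had no Ldh read. Of the 61 Ldh-low cells, 58 were at or under the highest of 180 control cells, 115.3 CPM, and 0 of the Ldh-high cells were. In the control pool 33 of 180 cells had an Ldh read and the summed level was 3.71 CPM.

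**Figure D1:**
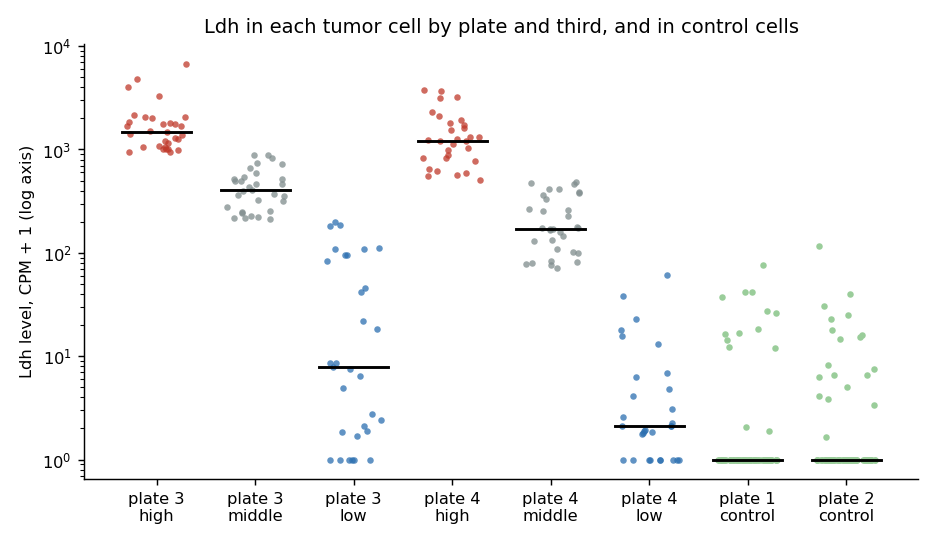
Ldh level of each kept cell as CPM + 1 on a log axis, by plate and Ldh group for tumor cells and by plate for control cells, with black bars at the medians. The Ldh-high cells sit at 508 CPM and above, and most Ldh-low cells fall within the range of the control cells, whose highest value is 115.3 CPM.

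Both groups were sequenced alike. The Ldh-high cells sum to 65541326 reads and the Ldh-low cells to 65600356, with medians of 1063092 and 1122672 reads per cell. The Ldh-high cells had fewer genes detected. At 100000 reads per cell the median was 3040 genes in the Ldh-high cells, 3410 in the middle cells and 3203 in the Ldh-low cells (3502, 3892 and 3707 before thinning). The same order between Ldh-high and Ldh-low cells held on plate 3 (3141 in Ldh-high and 3359 in Ldh-low cells) and on plate 4 (2850.5 and 3160). The 96 index pairs of plate 3 are those of plate 4, and of the 91 pairs with a kept cell on both plates 11 marked an Ldh-high cell on both.

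The mix of cells also differed between the groups. The transcription factor genes pnt, btd, tll and Sp1 mark type II neuroblasts, and a cell with 5 or more reads for 3 or more of them was called type II-like. By this rule 55 of 61 Ldh-high cells were type II-like (90.2%, interval 79.8 to 96.3%), 59 of 63 middle cells (93.7%) and 43 of 61 Ldh-low cells (70.5%, interval 57.4 to 81.5%). Cells with at least 5 reads of nerfin-1, Hey or dap, genes switched on in new neurons and in dividing daughters that leave the cell cycle, made up 8.2% of the Ldh-high cells (5 of 61), 22.2% of the middle cells (14 of 63) and 29.5% of the Ldh-low cells (18 of 61). Values for the type II-like cells ranked again on their own, 51 Ldh-high against 51 Ldh-low, are given beside many of the results below. Of the defining markers of other cell types some were near 0 and some were not. At 100000 reads per cell the glial factor gene repo, the synaptic gene brp and the hemocyte gene Hml had no read in any Ldh-high or Ldh-low cell, where 0 of 61 allows a share of up to 5.9%. Also at 100000 reads per cell, the synaptic gene nSyb was read in 2 Ldh-high and 1 Ldh-low cells. The neuronal gene elav was read in 73.8% of Ldh-high and 85.2% of Ldh-low cells at 100000 reads per cell. The glial gene nrv2 was at 85.8 CPM in Ldh-high and 235.9 CPM in Ldh-low cells, and Eaat1 had a log2 ratio of -0.40 and was not called. Over whole marker lists, the neuron list summed to 604 CPM in Ldh-high and 788 CPM in Ldh-low cells, and 1 of its 4 measured genes, elav, was at least 1.5-fold lower in Ldh-high cells on both plates. The glia list summed to 255.1 CPM in Ldh-high and 474 CPM in Ldh-low cells, and nrv2, the beta subunit of a sodium pump, was 1 of 4 called lower. The hemocyte list summed to 1.05 and 1.43 CPM in Ldh-high and Ldh-low cells and had no measured gene. The part of these markers in the results below was not tested.

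Of 5833 features with a mean of at least 10 CPM, 308 were at least 1.5-fold higher in Ldh-high cells on both plates, 5.28% of those measured, and 650 were at least 1.5-fold lower on both, 11.1%. Of the higher features 45 were under 10 CPM in Ldh-low cells, and more of the lower ones were under 10 CPM in Ldh-high cells, so that these were measured only through the group where they are high. Another 324 passed 1.5-fold in opposite directions on the 2 plates. The median log2 ratio of all measured features was -0.15 (-0.12 on plate 3 and -0.17 on plate 4), and each list median stands against it. Scaling by TMM, which sets the bulk of genes equal, moved that median to 0.02 and the counts to 456 higher and 440 lower, so the excess of lower genes depends on the scaling. With the reads of both plates summed, the middle group lay between the Ldh-high and Ldh-low cells for 262 of the 308 higher and 499 of the 650 lower features. Fewer features in each direction had the middle group between on plate 3 and also on plate 4. Of the 650 lower features, 244 did, so most of these showed no graded order on both plates. Among type II-like cells alone 329 features were higher (5.67% of 5804) and 599 lower (10.3%). There, 211 of the 308 higher features and 377 of the 650 lower ones were called in the same direction.

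**Figure D2:**
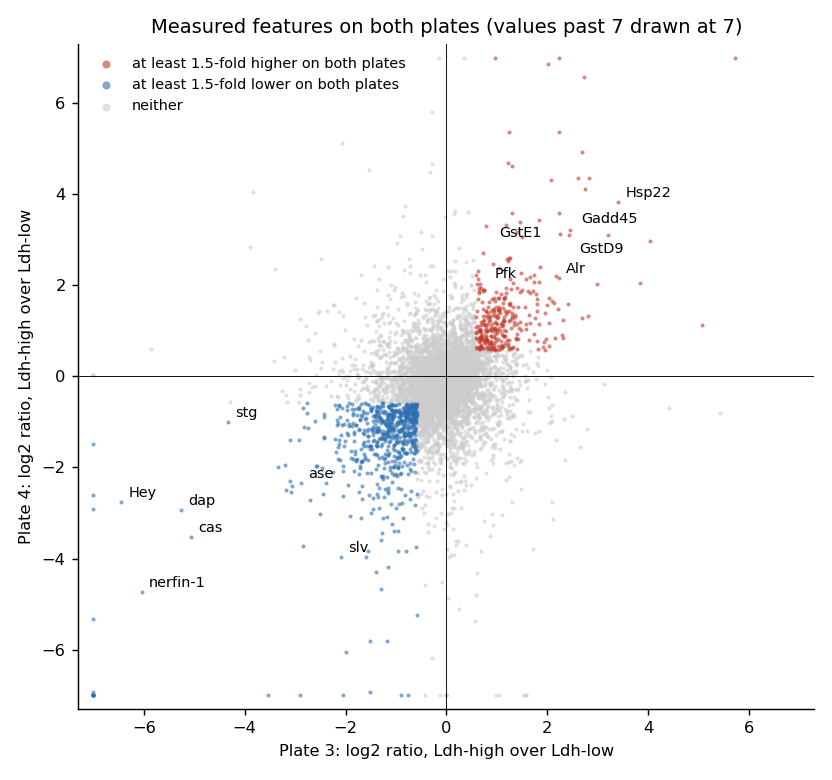
Log2 ratio of Ldh-high over Ldh-low cells for each measured feature on plate 3 (horizontal axis) and plate 4 (vertical axis), with values past 7 drawn at 7. Red points (308) are at least 1.5-fold higher on both plates and blue points (650) at least 1.5-fold lower on both, and Hsp22, Gadd45, cas and nerfin-1 lie far out on both axes.

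The glycolytic enzymes were higher in the Ldh-high cells. On both plates 8 of 11 genes measured passed 1.5-fold upward and none downward, where 5.28% of all features passed upward. The list had a median log2 ratio of 1.07 (0.96 on plate 3 and 1.15 on plate 4, and 0.87 in type II-like cells). Pfk, phosphofructokinase, which commits sugar to glycolysis, reached 618 CPM in the Ldh-high cells of plate 3 (interval 610 to 627) and 735 CPM in those of plate 4 (725 to 745), against 185.5 CPM (181.1 to 190.1) and 156.1 CPM (151.7 to 160.6) in the Ldh-low cells. Its joined level was 3.91-fold higher, with a log2 ratio of 1.97. Over single cells Pfk ran from 0 to 2154 CPM with a median of 637 in the Ldh-high cells, from 0 to 1581 with a median of 339.7 in the middle cells, and from 0 to 815 with a median of 103.3 in the Ldh-low cells. The ranges overlap, and the medians fall in the order of Ldh.

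The rest of the pathway followed with smaller ratios. Ald1, an aldolase, was at 2613 and 3891 CPM in the Ldh-high cells of plates 3 and 4, against 1144 and 1010 CPM in the Ldh-low cells (log2 1.56). Eno, enolase, was at 1956 and 2479 CPM in Ldh-high cells and at 892 and 879 CPM in Ldh-low cells (log2 1.31). Gapdh2, a glyceraldehyde 3-phosphate dehydrogenase, had a log2 ratio of 1.22, PyK, pyruvate kinase, 1.10, and Pglym78, phosphoglycerate mutase, 1.07. Tpi, triose phosphate isomerase, stood at 0.99 and Hex-A, a hexokinase, at 0.97. The genes that did not pass on both plates were Gapdh1 (0.54), Pgi, glucose 6-phosphate isomerase (0.49), and Pgk, phosphoglycerate kinase (0.44). Exons of Ald1, Eno, Pglym78 and Pgk overlap those of another gene on the other strand, and it is unknown whether reads were counted by strand.

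Summed over the list, glycolysis genes took 16453 CPM in Ldh-high, 13356 in middle and 8396 in Ldh-low cells of plate 3, and 19823, 16130 and 8209 CPM on plate 4. Across cells the summed level rose with Ldh with a Spearman rho of 0.62 over the 93 cells of plate 3 and 0.61 over the 92 of plate 4. These cells share a pool and a plate, and both values are shares of the same cell's reads, so rho is a description.

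Genes that bring sugar in or steer its use went both ways. Of 10 sugar and lactate transport genes only 2 were measured, 1 called higher and 1 lower. Each was under 10 CPM in the group where it was lower. Both were thus measured only through the other group, and these calls are descriptions. Tret1-1, a trehalose transporter, was at 47.5 CPM in Ldh-high and 7.76 CPM in Ldh-low cells (log2 2.61). sut1, a sugar transporter, was at 5.72 CPM in Ldh-high and 17.3 CPM in Ldh-low cells (log2 -1.60). Pfrx, whose enzyme makes and removes fructose 2,6-bisphosphate, the activator of phosphofructokinase, was at 26.5 CPM in Ldh-high and 2.50 CPM in Ldh-low cells (log2 3.41). It was read in 16 of 61 Ldh-high and 7 of 61 Ldh-low cells, so its ratio rests on few cells. Pfrx, too, was under 10 CPM in the Ldh-low cells. Exons of Pfrx overlap CG14200 on the same strand, and those of sut1 overlap slv on the other strand. In the pentose phosphate pathway, which draws on the same glucose 6-phosphate, Zw, the entry enzyme, was at 3.43 CPM in Ldh-high and 22.9 CPM in Ldh-low cells (log2 -2.74), and Rpe, ribulose phosphate epimerase, at 28.4 and 62.8 CPM (log2 -1.15). These were 2 of 6 measured genes, where 11.1% of all features were called lower. None of the 6 was called higher, and the median was -0.43. Zw was under 10 CPM in Ldh-high cells, so it was measured only through the Ldh-low cells.

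Few genes of mitochondrial metabolism were called. Among 67 nuclear-encoded respiratory chain genes 1 was called higher and 0 lower, with a median log2 ratio of -0.24 against -0.15 for all features. The called gene was UQCR-C1, a core subunit of complex III, at 1174 and 1229 CPM in the Ldh-high cells of plates 3 and 4 and 738 and 784 CPM in the Ldh-low cells (log2 0.66). None of the 33 measured complex I genes was called (median -0.31), and none of the 6 mitochondrially encoded genes (median -0.24). Among type II-like cells 3 of 67 respiratory chain genes were called lower and none higher, a smaller share than the 10.3% of all features called lower there. In the TCA cycle list 2 of 18 were lower and none higher (median -0.27), which for the lower calls is no more than the 11.1% of all features. They were Mdh2, a malate dehydrogenase, at 52.9 CPM in Ldh-high and 128.5 CPM in Ldh-low cells (log2 -1.28), and Idh, an isocitrate dehydrogenase, at 103.4 and 242.8 CPM (log2 -1.23). Of 9 measured genes that handle pyruvate and glycerol 3-phosphate 2 were lower and none higher (median -0.41), where 11.1% of all features were lower. Among type II-like cells 1 of them was lower, where 10.3% of all features were. The 2 genes called in all cells were Mpc1 and PCB. At the step where pyruvate leaves the cytosol, Mpc1, a subunit of the mitochondrial pyruvate carrier, was at 10.2 CPM in Ldh-high and 30.1 CPM in Ldh-low cells (log2 -1.56), and PCB, pyruvate carboxylase, at 36.2 and 78.3 CPM (log2 -1.11). Of the others, Men, a malic enzyme, had a log2 ratio of 0.92, and Pdha, a pyruvate dehydrogenase subunit, had -1.20 on plate 3 and 0.46 on plate 4.

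Of 13 genes of mitochondrial shape and quality control 2 were higher and 1 lower, with a median of -0.10. For the lower call this is no more than the 11.1% of all features, and 5.28% of all features were called higher. Among the 13, 1 that was not called was under 10 CPM in Ldh-high cells. Phb2 and Phb1, prohibitins of the inner membrane, were at 1800 and 929 CPM in Ldh-high cells and at 824 and 471 CPM in Ldh-low cells (log2 1.13 and 0.98). Fis1, which recruits the fission machinery, was at 105.7 CPM in Ldh-high and 202.8 CPM in Ldh-low cells (log2 -0.94). The fusion gene Marf was at 171.8 and 99.1 CPM in Ldh-high and Ldh-low cells (log2 0.79), with 1.15 on plate 3 and 0.45 on plate 4, and did not pass on both. Alr, the gene for a sulfhydryl oxidase that helps import proteins into the space between the mitochondrial membranes, was at 356 and 524 CPM in the Ldh-high cells of plates 3 and 4, and at 76.01 and 117.1 CPM in the Ldh-low cells (log2 2.19). Its exons overlap parvin on the same strand.

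Of 9 measured genes for hypoxia and estrogen-related receptor signalling 1 was higher and 1 lower, where 5.28% and 11.1% of all features were. The higher one was sima, the HIF-1 alpha gene of the fly. It was at 193.7 and 205.4 CPM in the Ldh-high cells of plates 3 and 4, against 95.2 and 75.2 CPM in the Ldh-low cells (log2 1.21, and 1.23 in type II-like cells). Its oxygen-responsive target chrb, an inhibitor of TOR signalling, went the other way, at 188.2 CPM in Ldh-high and 336.9 CPM in Ldh-low cells (log2 -0.84, and -0.35 in type II-like cells). Of the others, REPTOR had a log2 ratio of 0.78 and scyl one of -0.26, and neither was called. The median of the 9 genes was -0.12.

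**Figure D3:**
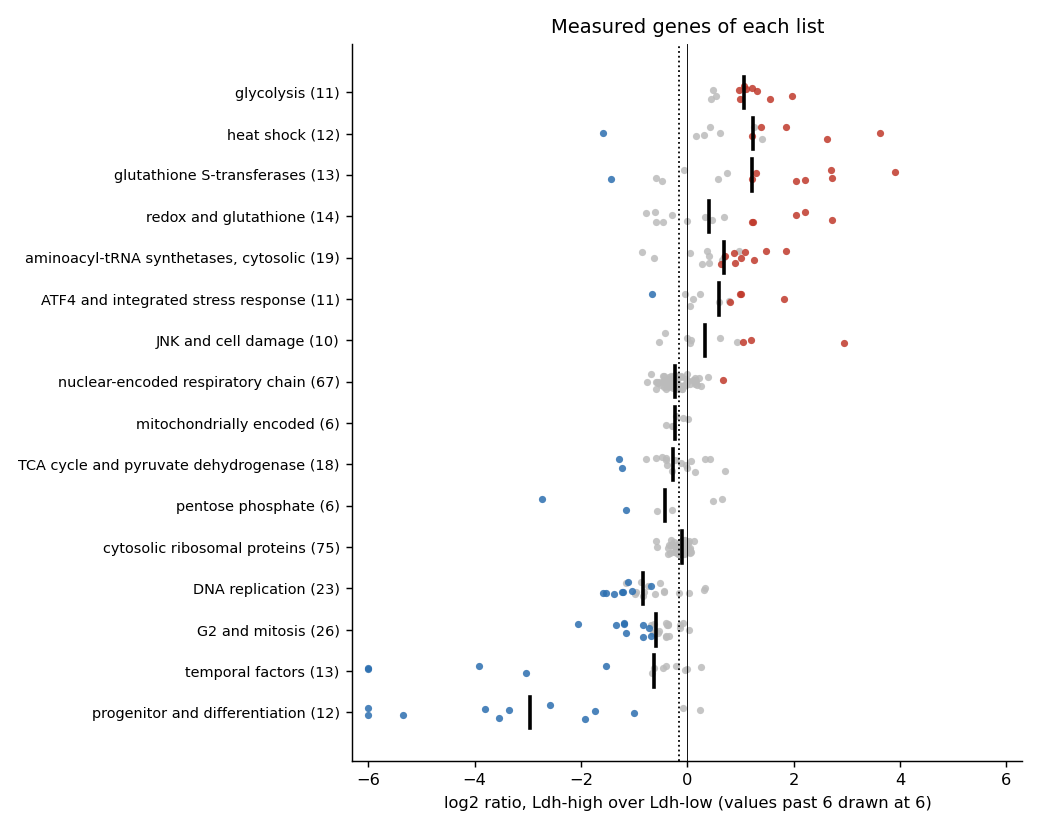
Log2 ratio of Ldh-high over Ldh-low cells for each measured gene of 16 lists, with the number of genes in brackets, black bars at list medians and a dotted line at the median of all features, -0.15. Red genes are at least 1.5-fold higher on both plates, blue genes at least 1.5-fold lower, grey genes neither, and values past 6 are drawn at 6. Glycolysis lies wholly to the right of the dotted line and the progenitor and differentiation list mostly far to its left.

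Genes of stress and detoxification were among those with the highest ratios. Among the genes that met the rule for naming, which asks for reads in 25% or more of the cells of the higher group, the largest ratio on the weaker plate was that of Hsp22, a small heat shock protein of the mitochondrial matrix (chromosome 3L, 9372931 to 9374964). It was at 1948 CPM in the Ldh-high cells of plate 3 (interval 1934 to 1963) and 3190 CPM in those of plate 4 (3170 to 3211), against 183.9 CPM (179.5 to 188.5) and 225.2 CPM (219.9 to 230.6) in the Ldh-low cells. The joined level was 12.4-fold higher (log2 3.63, and 3.55 in type II-like cells). Single Ldh-high cells ran from 8.17 to 15082 CPM with a median of 697, middle cells from 0.72 to 19938 with a median of 102.8, and Ldh-low cells from 0 to 3035 with a median of 58. Every Ldh-high cell had an Hsp22 read. Its exons overlap CG4456 on the same strand.

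Of 12 measured heat shock genes 5 were higher and 1 lower, where 5.28% and 11.1% of all features were. Their median was 1.24, but the plates differed, at 0.44 on plate 3 and 1.55 on plate 4. Hsp26 and Hsp23, small cytosolic chaperones, had log2 ratios of 2.63 and 1.86, Hsp83, the fly Hsp90, 1.39, and Hsp60A, a mitochondrial chaperonin, 1.21. Hsp67Ba was lower, at 5.29 CPM in Ldh-high and 15.99 CPM in Ldh-low cells (log2 -1.59), but it was read in only 5 and 7 of those cells. Being under 10 CPM in Ldh-high cells, Hsp67Ba was measured only through the Ldh-low cells. The control pool stood at 563 CPM for Hsp22, 1655 CPM for Hsp26 and 3949 CPM for Hsp23, which for Hsp23 is above both tumor groups (2336 CPM in Ldh-high and 643 CPM in Ldh-low cells).

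Among measured glutathione S-transferases, enzymes that attach glutathione to reactive compounds, more were called higher than lower. Of 35 genes 13 were measured, of which 7 were higher and 1, GstE13, lower, with a median of 1.22 (0.84 and 1.35 on plates 3 and 4). Of all features 5.28% were called higher and 11.1% lower. Among the 13, 2 were under 10 CPM in Ldh-low cells and 1 in Ldh-high cells. These were measured only through the group where they are high, so the count and median are descriptions. In type II-like cells 6 of 15 were higher and 2 lower with a median of 0.80, and without cells that had reads of nerfin-1, Hey or dap that median was 0.39. GstE1 (chromosome 2R, 18398393 to 18399223) was at 1166 and 2091 CPM in the Ldh-high cells of plates 3 and 4, against 242.9 and 238.3 CPM in the Ldh-low cells (log2 2.72). It was at 1.91 CPM in the control pool, so the Ldh-low cells were also far above control cells. Its median over cells was 1035 CPM in the Ldh-high, 212.8 in the middle and 63.8 in the Ldh-low cells. GstD9 was at 1463 and 225.1 CPM in Ldh-high and Ldh-low cells (log2 2.70), GstE7 at 34.7 and 2.30 CPM (log2 3.91), GstE6 at 205.7 and 44.3 CPM (log2 2.21) and GstT1 at 77.7 and 18.9 CPM (log2 2.04). The GstD and GstE genes are close copies that can share reads, and the exons of GstE1 overlap GstE10 on the other strand, so the split among copies is uncertain. In the wider redox list 5 of 14 genes were higher and none lower (median 0.40), and in type II-like cells 8 of 15 were higher and 1 lower (median 0.71). Trxr1, thioredoxin reductase, was at 1647 CPM in Ldh-high and 702 CPM in Ldh-low cells (log2 1.23), whereas Sod1, a superoxide dismutase, was at 531 and 651 CPM (log2 -0.29).

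Signalling genes linked to damage and to unfolded protein were higher in part. Gadd45, a stress sensor that activates MAP kinase kinase kinases, had 310.5 CPM in the Ldh-high cells of plate 3 and 908 CPM in those of plate 4, against 56.7 and 98.6 CPM in the Ldh-low cells (log2 2.94). The control pool had 0.22 CPM. Gadd45 was read in 56 of 61 Ldh-high, 45 of 63 middle and 28 of 61 Ldh-low cells, with medians of 294.4, 36.4 and 0 CPM. Of 10 measured genes for JNK signalling and cell damage 3 were higher and none lower (median 0.33), where 5.28% of all features were higher. The others were kay, the fly Fos (log2 1.20), and Mmp2, a matrix metalloproteinase (log2 1.05). Mmp2 had a log2 ratio of 0.37 without its single highest cell.

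In the integrated stress response list 4 of 11 genes were higher and 1, Atf6, lower (median 0.59), where 5.28% and 11.1% of all features were. In type II-like cells 2 were higher and none lower (median 0.35), where 5.67% of all features were higher. Xbp1, the transcription factor of the unfolded protein response, was at 692 and 705 CPM in the Ldh-high cells of plates 3 and 4 and at 232.3 and 160.6 CPM in the Ldh-low cells (log2 1.81). The others were trbl, a pseudokinase (log2 1.01), PEK, the kinase that senses unfolded protein (log2 0.98), and Hsc70-3, the chaperone BiP (log2 0.80). crc, the fly ATF4, was at 1448 CPM in Ldh-high and 1226 CPM in Ldh-low cells (log2 0.24) and was not called.

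Cytosolic aminoacyl-tRNA synthetases, which charge tRNAs with amino acids, were higher in 9 of 19 cases and lower in none, where 5.28% of all features were higher. Their median was 0.69 in all cells and in type II-like cells. ValRS was at 477 and 544 CPM in the Ldh-high cells of plates 3 and 4 and at 112.2 and 173.1 CPM in the Ldh-low cells (log2 1.85). AspRS was at 1708 and 2196 CPM in Ldh-high and 552 and 868 CPM in Ldh-low cells (log2 1.47), HisRS had a log2 ratio of 1.25 and SerRS one of 1.09. Of 10 mitochondrial synthetases none was called (median 0.34), nor were any of 75 cytosolic ribosomal protein genes (median -0.11), 34 proteasome genes (0.05) or 7 subunits of the chaperonin CCT (0.35). Growth and TOR pathway genes had no call among 10 (median -0.11).

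**Figure D4:**
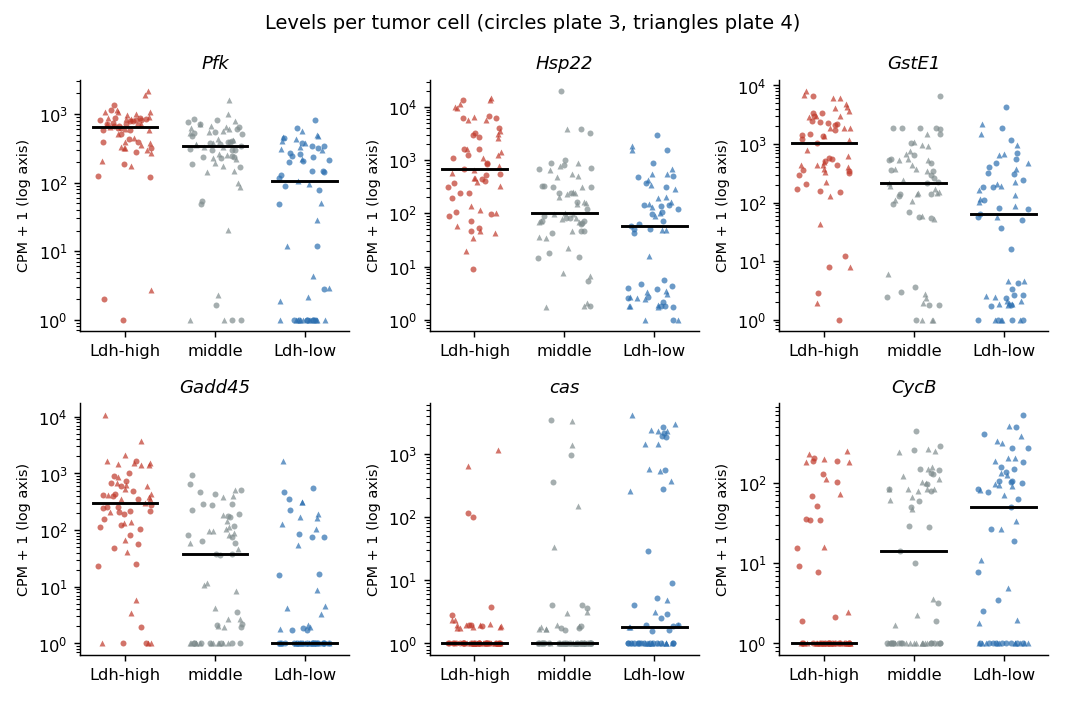
Level of 6 genes in each kept tumor cell as CPM + 1 on a log axis, in Ldh-high, middle and Ldh-low cells (circles plate 3, triangles plate 4, black bars medians). Pfk, Hsp22, GstE1 and Gadd45 have falling medians across the groups with overlapping ranges (Pfk medians 637, 339.7 and 103.3 CPM), cas is high in a minority of cells, and CycB has medians of 0, 13.1 and 49.2 CPM.

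The remaining genes with the largest ratios do not belong to one list. Wnt2, a secreted signal, was at 59.9 CPM in Ldh-high and 6.08 CPM in Ldh-low cells (log2 3.30), with a read in 23 and 7 cells. Rdh1, a retinol dehydrogenase by name, was at 184.2 and 33.9 CPM in Ldh-high and Ldh-low cells (log2 2.44), and Mur2B, a mucin-related gene, at 62.6 and 9.92 CPM (log2 2.66). Exons of Rdh1 and Mur2B overlap other genes. CG30022, CG10916, CG6154 and CG30339, named by number only, had log2 ratios of 3.15, 3.33, 3.27 and 2.57. Wnt2, Mur2B and these 4 genes were under 10 CPM in Ldh-low cells. They were thus measured only through the Ldh-high cells, and their ratios are descriptions. CG6154 was higher in the middle cells, at 36.9 CPM, than in the Ldh-high cells, at 30.7 CPM. Among type II-like cells the log2 ratio was 2.28 for Wnt2, 1.79 for CG6154, 1.92 for Tret1-1, 1.76 for GstE7 and 4.90 for Pfrx.

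The genes lowest in Ldh-high cells included those of progenitors and differentiating cells. Of 12 measured genes on that list 10 were at least 1.5-fold lower on both plates and none higher, with a median log2 ratio of -2.97. Of the 12, 5 were under 10 CPM in Ldh-high cells and passed the minimum only through the Ldh-low cells, so they could be measured only by being lower, and the count and median are descriptions. In the type II-like cells only 6 of these genes were measured, 3 were lower and the median was -0.61. nerfin-1, a zinc finger gene of new neurons (chromosome 3L, 909112 to 912319), was at 3.61 and 7.59 CPM in the Ldh-high cells of plates 3 and 4, against 237.5 and 202.3 CPM in the Ldh-low cells (log2 -5.35). Its median was 0 CPM in all 3 groups and it was read in 10 Ldh-high, 9 middle and 18 Ldh-low cells, with a highest cell of 242.5, 1263 and 2951 CPM. Among type II-like cells nerfin-1 stood at 2.30 CPM in Ldh-high and 0.088 CPM in Ldh-low cells, both below the 10 CPM minimum, so its lower level in Ldh-high cells was not seen among them. Hey, a Notch target in newborn neurons, had 2.45 and 45.7 CPM in the Ldh-high cells of plates 3 and 4 and 213.7 and 309.5 CPM in the Ldh-low cells (log2 -3.54), but 1.59 and 0.25 CPM in Ldh-high and Ldh-low type II-like cells. dap, an inhibitor of Cyclin E and Cdk2, was at 6.36 and 88.9 CPM in Ldh-high and Ldh-low cells (log2 -3.80), and at 1.52 and 12.01 CPM in Ldh-high and Ldh-low type II-like cells. elav, the pan-neuronal RNA-binding protein, was at 197.0 and 397 CPM (log2 -1.01), with a log2 ratio of 0.02 in type II-like cells.

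Some lineage genes differed within the type II-like cells as well. ase, which type I neuroblasts and maturing intermediate progenitors express, was at 22.8 and 42.3 CPM in the Ldh-high cells of plates 3 and 4 and 168.2 and 214.1 CPM in the Ldh-low cells (log2 -2.58, and -1.39 in type II-like cells). It was read in 18.0% of Ldh-high cells (interval 9.4 to 30.0%) and 47.5% of Ldh-low cells (34.6 to 60.7%) at 100000 reads per cell. pros, which drives daughters to differentiate, was at 159.4 CPM in Ldh-high and 531 CPM in Ldh-low cells (log2 -1.74, and -0.92 in type II-like cells). insb, another gene of neural precursors, was at 22.1 and 137.4 CPM in Ldh-high and Ldh-low cells (log2 -2.63, and -1.38 in type II-like cells). Other lineage genes were below the 10 CPM minimum among the type II-like cells. erm, which stabilises intermediate progenitors, was at 8.47 and 86.9 CPM in Ldh-high and Ldh-low cells (log2 -3.36), with 1 and 10 cells at 100000 reads per cell. opa and ey, temporal factors of intermediate progenitors, summed to 0.02 and 0 CPM in the Ldh-high cells and to 98.6 and 23.8 CPM in the Ldh-low cells. ey was at least 519-fold lower, with 3 reads over the Ldh-high cells set as the floor, and both genes rest on few cells, since opa was read in 5 Ldh-low cells and ey in 3. Among type II-like cells opa was at 0.018 CPM in Ldh-high and 0 CPM in Ldh-low cells and ey at 0 CPM in both, so no difference was seen there. erm was at 0 CPM in Ldh-high and 7.23 CPM in Ldh-low type II-like cells.

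Most core neuroblast genes were not called. Of 11 neuroblast identity genes none was higher and 2, ase and nab, were lower, with a median of 0.25, where 11.1% of all features were lower. In type II-like cells 3 of 11 were lower and none higher, where 10.3% of all features were lower. mira, which carries fate determinants into the daughter, was at 1768 CPM in Ldh-high and 1180 CPM in Ldh-low cells (log2 0.58). The type II markers pnt, Sp1, tll and btd had log2 ratios of 0.58, 0.32, 0.25 and -0.20, and none passed on both plates. Of 13 temporal factors 5 were lower and none higher (median -0.62), where 11.1% of all features were lower. Of the 13, 4 passed the minimum only through the Ldh-low cells. cas, a temporal factor of embryonic and early larval neuroblasts, was at 9.01 and 56.1 CPM in the Ldh-high cells of plates 3 and 4, against 301 and 650 CPM in the Ldh-low cells (log2 -3.92). It was read in 20 Ldh-high and 33 Ldh-low cells. In type II-like cells cas was at 5.85 and 74.8 CPM in Ldh-high and Ldh-low cells, but the plates went opposite ways, with log2 ratios of 2.44 on plate 3 and -9.03 on plate 4. Eip93F, an ecdysone-induced factor of late neuroblasts, was at 4.39 and 36.1 CPM in Ldh-high and Ldh-low cells (log2 -3.04), and 142.9 CPM in the control pool.

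**Figure D5:**
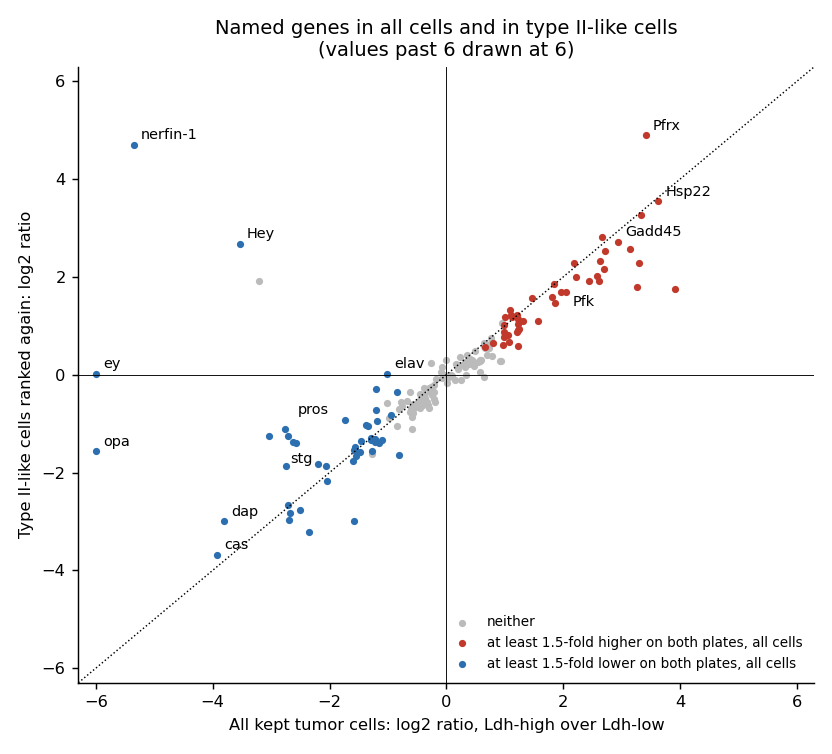
Log2 ratio of Ldh-high over Ldh-low for the named genes in all kept tumor cells (horizontal axis) and in type II-like cells ranked again (vertical axis), with values past 6 drawn at 6 and a dotted line of equality. Red and blue mark genes called higher and lower in all cells and grey those called neither. Most genes higher in Ldh-high cells lie near the line, whereas nerfin-1, Hey, elav, ey and opa leave it, of which ey and opa have next to no reads among type II-like cells.

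Part of the genes of the dividing cell were lower in Ldh-high cells. Of 23 DNA replication genes 8 were lower on both plates and none higher, where 11.1% of all features were lower. The list median was -0.83, but -0.37 on plate 3 and -1.22 on plate 4. dpa, the Mcm4 subunit of the replicative helicase, was at 110.8 and 88.9 CPM in the Ldh-high cells of plates 3 and 4 and at 241.0 and 370 CPM in the Ldh-low cells (log2 -1.58). RnrS, the small subunit of ribonucleotide reductase, was at 38.6 and 32.5 CPM in Ldh-high cells and 71.7 and 141.1 CPM in Ldh-low cells (log2 -1.54). Cdc6 and Psf2, which act at origins, had log2 ratios of -1.23 and -1.38. In type II-like cells the list median was -0.86 and 7 genes were lower, where 10.3% of all features were lower.

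Of 26 G2 and mitosis genes 9 were lower and none higher, with a median of -0.58, where 11.1% of all features were lower. In type II-like cells the median was -0.35 and 4 of 26 were lower, where 10.3% of all features were lower. stg, the Cdc25 phosphatase that triggers mitosis, was at 13.4 and 115.8 CPM in the Ldh-high cells of plates 3 and 4 and at 268.2 and 231.7 CPM in the Ldh-low cells (log2 -2.06). Its median over cells was 0 CPM in all 3 groups, the highest Ldh-low cell reached 4677 CPM, and it was read in 42.6% of Ldh-high cells (interval 30.0 to 55.9%) and 49.2% of Ldh-low cells (36.1 to 62.3%). CycB, cyclin B (chromosome 2R, 22803521 to 22806948), was at 36.1 and 50.8 CPM in Ldh-high cells and 117.6 and 97.9 CPM in Ldh-low cells (log2 -1.34). At 100000 reads per cell CycB was read in 29.5% of Ldh-high cells (interval 18.5 to 42.6%) and 62.3% of Ldh-low cells (49 to 74.4%). ncd and sub, kinesin motors of the spindle, had log2 ratios of -1.20 and -1.19. The control pool was above both tumor groups for these genes, at 1253 CPM for stg and 218.5 CPM for CycB. Cells with nerfin-1, Hey or dap reads, 8.2% of the Ldh-high and 29.5% of the Ldh-low cells, and the lower gene number of Ldh-high cells stand beside these values, and their part was not tested.

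The other genes at the low end span several functions. Agpat1, an acyltransferase of phospholipid synthesis, was at 10.5 CPM in Ldh-high and 69.2 CPM in Ldh-low cells (log2 -2.72 on each plate). Ppox, an enzyme of heme synthesis, was at 10.3 and 46.8 CPM in Ldh-high and Ldh-low cells (log2 -2.19), slv, a sugar transporter of the SWEET family, at 12.6 and 82.8 CPM (log2 -2.72), and Snm1, a DNA crosslink repair nuclease by homology, at 9.80 and 50.3 CPM (log2 -2.36). Exons of Agpat1, Ppox, slv and Snm1 overlap a neighbor on the other strand. CG15628, CG31743, CG12818, CG30344 and CG11791, named by number only, had log2 ratios of -2.77, -2.67, -2.50, -2.70 and -2.05. Snm1, CG15628, CG31743, CG12818 and CG30344 were under 10 CPM in Ldh-high cells. They were thus measured only through the Ldh-low cells, and their ratios are descriptions. CG11791 was higher in the middle cells, at 70.3 CPM, than in the Ldh-low cells, at 57.6 CPM. Within type II-like cells the log2 ratio was -1.26 for Agpat1, -1.11 for CG15628, -3.21 for Snm1, -1.86 for Zw, -3.0 for Hsp67Ba and -1.25 for Eip93F. Of 71 mitochondrial ribosomal protein genes 7 were lower and 2 higher (median -0.24), no larger shares than the 11.1% and 5.28% of all features, among them mRpL9 (log2 -1.29) and mRpL28 (log2 1.22).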

How the data were processed

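The authors deposited raw counts of reads for each gene in each cell, which were not normalized, as the unequal totals of the cells show. The submitters' processing notes name the builds BDGP6 and dm6. The aligner, the counter and whether strand was used are not given in these sources. Cells were amplified with 18 PCR cycles and no molecular identifiers, per the labels' protocols, so intervals cover counting error only. Gene symbols were taken from a name table for 13701 of 14219 features, and coordinates and exon overlaps from Ensembl release 115 on BDGP6.

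Cells with at least 100000 reads and 1000 genes were kept, which left out 7 tumor wells. Doublets were not called, because single-cell sorting is described in the labels' protocols. Kept tumor cells were ordered by Ldh CPM within each plate, and the reads of each group were summed and given per 1000000 reads, with a sum of 0 set to a floor of 3 reads. A feature was measured when the mean of Ldh-high and Ldh-low was at least 10 CPM, and called when the ratio of Ldh-high over Ldh-low was at least 1.5-fold in the same direction on both plates. Plates are parts of 1 pool, so no test was run and calls describe these cells. Cells were thinned to 100000 reads each for numbers of genes and for the shares of cells given as at 100000 reads per cell. Other counts and shares of cells, among them those of type II-like cells, use all reads.

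The cells, the 31 gene lists and the rule for named genes were chosen with earlier results of these data known, and 7 gene families were added after their values were seen. Named genes are the 15 highest and 15 lowest by the smaller plate ratio, among genes with a symbol that 25% or more of cells in the higher group expressed and that held 1.5-fold with cells weighted equally and without the top cell. The rule also took up to 4 members of each list, every measured gene of lists with no more than 8 measured genes, and all measured glycolysis genes. Not all members so taken are printed, and the ribosome biogenesis and epithelium lists are left out of the text. Hsp83, Hsp60A, GstE13, Sod1, Atf6, crc, Marf, Pdha, erm and the marker genes of the opening paragraphs were named after their values were seen. Alternatives covered the edges and measure of the ranking, cell filters, cell weights, scaling and the minimum level, and the steps were tested on simulated reads. TMM factors came from edgeR 4.0.16 under R 4.3.3. All else used Python 3.11.15, its libraries being pandas 2.3.3, numpy 2.4.6, matplotlib 3.10.9 and scipy 1.17.1.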

Additional observations from a re-analysis of the deposited data

How the results depend on the processing

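With 1 tumor pool nothing here estimates the spread between animals, most ratios rest on cells of 3 brains, and PCR copies are counted as reads. No paired analysis was possible because no result comes from a test. Of 18 alternatives, 2 were chosen after seeing the data, those without cells that had reads of nerfin-1, Hey or dap. The cause of the changes below was not tested, except where an alternative removes cells, genes or a plate by its construction. Genes called higher and lower, 5.28% and 11.1% of those measured as reported, were 13.5% (782) and 23.4% (1357) on plate 3 alone and 15.4% (888) and 29.6% (1707) on plate 4 alone. They were 3.35% (196) and 6.28% (368) with the upper and lower 50% of cells, and 6.06% (564) and 12.1% (1128) with no minimum level. At a minimum of 50 CPM, where 3276 features were measured, they were 5.71% and 6.56% (215). Lower genes were 7.47% (422) without the cell with most reads of each gene. Scaling by TMM gave 456 higher and 440 lower genes. The median of glycolysis genes, 1.07 as reported, was 0.75 with 50% groups, 1.34 with 25% groups, 0.87 in type II-like cells, 0.92 in cells without differentiation markers, 0.87 in type II-like cells without them and 1.25 with TMM. The respiratory chain median, -0.24 as reported, was -0.06 with TMM, -0.14 when cells were ranked within 2 strata of genes per cell and -0.17 without the top cell of each gene. It was -0.23 with 50% groups, with ranking at 100000 reads and without abundant features, -0.25 on plate 3 alone and at 500000 reads and 2000 genes, and -0.26 without the well with most genes. It was -0.28 in type II-like cells without differentiation markers, -0.29 with thinned cells, -0.31 with cells weighted equally, -0.32 with 25% groups and -0.33 in type II-like cells. The G2 and mitosis median, -0.58 as reported, was -0.27 in type II-like cells without differentiation markers, -0.34 in cells without them, -0.35 in type II-like cells and with 50% groups, -0.41 with TMM and -0.45 without the top cell. It was -0.52 on plate 3 alone, -0.53 at 500000 reads and 2000 genes, -0.55 at 50 CPM, -0.63 when ranked within 2 strata of genes per cell and -0.69 with 25% groups. The DNA replication median stayed below 0 throughout, between -0.95 with cells weighted equally and -0.37 on plate 3 alone, apart from -1.22 on plate 4 alone. The difference in genes per cell, Ldh-high minus Ldh-low, was -163 as reported. It was -309.5 on plate 4 alone, -293 with 50% groups, -235.5 with 25% groups, -393 in type II-like cells, -80 at 500000 reads and 2000 genes, -461.5 without differentiation markers and -427 in type II-like cells without them. Ranking within 2 strata of genes per cell, which evens that number out, gave 29.5. Among the named genes called on both plates, 5 changed direction under an alternative. In type II-like cells the log2 ratio was 4.70 for nerfin-1 and 2.68 for Hey, both under 10 CPM there, and 0.02 for elav and 0.02 for ey. Without differentiation markers it was 0.62 for nerfin-1, 0.03 for elav and 0.04 for ey, and in type II-like cells without them 0.63 for nerfin-1, 0.08 for elav and 0.04 for ey and for opa. These 2 alternatives remove every cell with 5 or more nerfin-1 reads. The nerfin-1 values there thus rest on cells with fewer reads and show no change of direction. The cell cycle exit median was 0.13 in type II-like cells and 0.05 in those without differentiation markers, where fewer of its genes were measured. The values of ey and opa above come from groups at or near 0 reads.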
